A study of Mus musculus with 4 samples.

Results

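Anti-FLAG M2 affinity gel was used to recover RNA from mouse embryonic stem cells transfected with FLAG-tagged mutant Dis3l2, and this RNA (the mutant IP) was compared with the input RNA of the same transfection (the mutant input). The cells were of the C57BL/6 strain, at passages 25 to 30, and were grown without feeders on gelatin with LIF and serum. The input had been selected with Ribominus, which depletes ribosomal RNA, and no such selection is given in the labels for the IP RNA, so every ratio below also compares RNA prepared in different ways. Mock transfected cells of the same kind gave a mock input and a mock IP, which show what the gel recovered without the tagged protein. The labels do not name the mutation or the promoter of the construct, and the amount of tagged protein was not analysed here. Each of the 4 samples is 1 library, so no difference below has a replicate check and no p-value is given.

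The series set out to identify RNAs bound by the mutant protein. The features compared had at least 20 reads in the mutant IP or the mutant input. They numbered 10494 of 21443 gene symbols, 1748 of 4973 in the noncoding table and 8746 of 16470 in the mRNA table, which also lists some noncoding RNAs. By the same rule, 9068 symbols qualified in the mock pair. The deposited values are reads divided by 1.8 for the mutant input and 2.7 for the mutant IP, and by 2.5 for both mock libraries. A fold or ratio of single features below is the ratio of these deposited values. Ratios on the log2 scale were taken after adding 1 to each value, which understates the change of features with few reads, and "higher" or "lower" in a count means at least 4-fold on that scale.

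Dis3l2 degrades RNA from the 3′ end and prefers RNA with an untemplated U tail. Such tails are added by the terminal uridylyltransferases Zcchc11 (Tut4) and Zcchc6 (Tut7). In stem cells it is known for degrading the uridylated precursor of the let-7 miRNA, whose uridylation is directed by Lin28a. It is also known to act on structured noncoding RNAs.

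Stem cell marker genes were present in all 4 libraries. In the order mutant input, mock input, mutant IP, mock IP, Pou5f1 had 48, 62, 329 and 261 reads, Sox2 13, 13, 416 and 213, and Nanog 11, 7, 70 and 39. Over 34 pluripotency genes the reads in that order summed to 475, 586, 9376 and 7016, and 9, 8, 1 and 1 of the genes were at 0. The 11 endoderm markers summed to 115, 58, 591 and 312 reads with 6, 8, 6 and 6 at 0, the 6 fibroblast markers to 64, 48, 168 and 75 with 4, 1, 2 and 0 at 0, and the 13 mesoderm and ectoderm markers to 103, 172, 162 and 137 with 7, 7, 6 and 6 at 0. The part of other cell types in the results was not tested. Noncoding-table depth was 2746737 reads in the mutant input and 3183346 in the mutant IP, whereas in the mRNA table it was 307324 and 2275647. Lars2, which encodes the mitochondrial leucyl-tRNA synthetase, took 33.3% of the mRNA-table reads in the mutant input and 52% in the mutant IP. In the mock input and mock IP it took 34.8% and 58.6%. Whether the reads of this row come from the Lars2 mRNA was not examined. The 95% intervals given below are exact and cover counting error only. Between the 2 inputs, which also differ in condition, the squared deviation of mRNA-accession rows was 4.66 to 5.47 times that expected from counting, and between the 2 IPs 7.81 to 8.59 times, so the intervals are narrower than the spread between libraries.

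Among noncoding members, 482 (27.6%) were higher in the mutant IP than in the mutant input and 271 (15.5%) were lower. The median log2 ratio was 0.25. Centring on that median left 442 (25.3%) higher and 299 (17.1%) lower, and equal totals over all but the 10 features with most reads gave 844 and 147. In the mock pair 330 of 1551 (21.3%) were higher and 280 (18.1%) lower. Reads entered the comparison unevenly: 965 features had 20 reads in both libraries, 614 only in the IP and 169 only in the input. A feature that entered through 1 library alone had to be high there, and 398 of the 614 were higher and 150 of the 169 lower. Among the 965 with 20 reads in both, 84 (8.7%) were higher and 121 (12.5%) lower, and their median was -0.42. Of the 1134 with 20 input reads, 84 (7.41%) were higher and 271 (23.9%) lower. At the entry threshold, the 46 noncoding features whose larger count was 19 had a median of 1.59, and the 40 whose larger count was 20 had a median of 2.43.

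**Figure D1:**
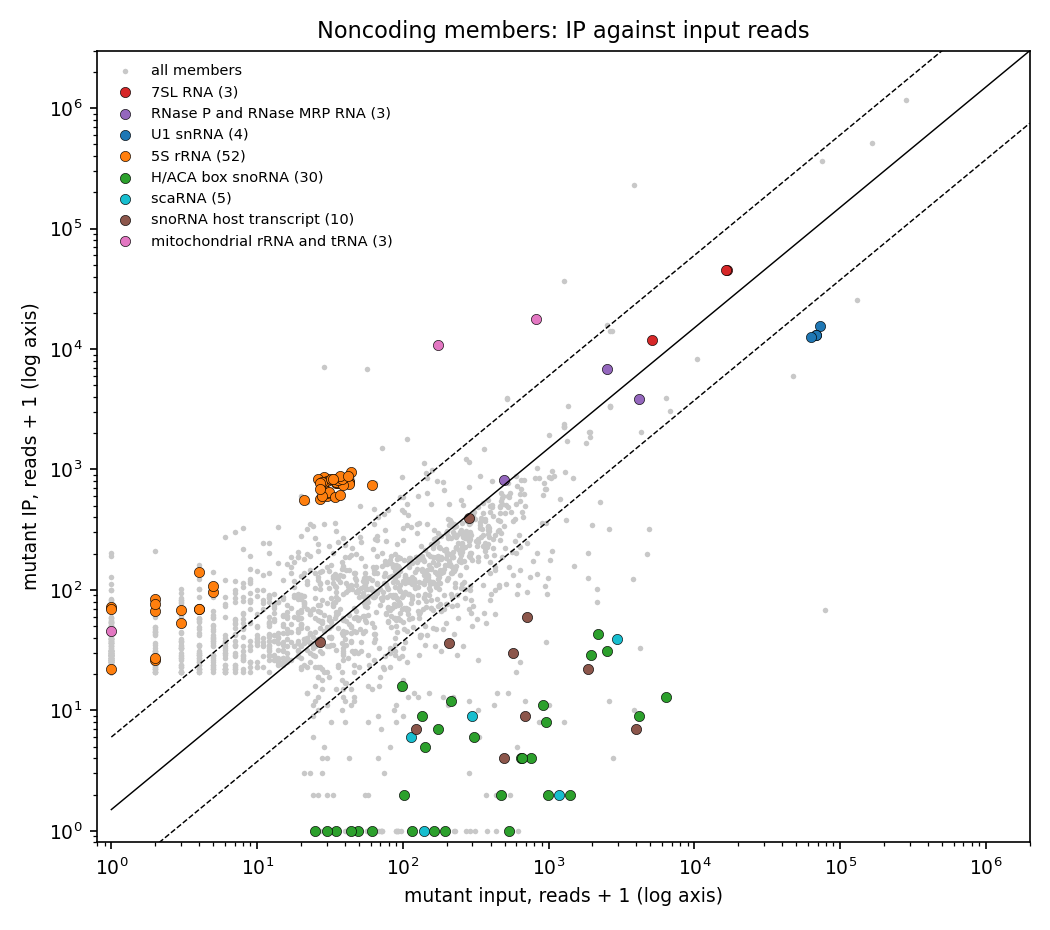
Reads + 1 of the 1748 noncoding members in the mutant input (horizontal, log axis) and the mutant IP (vertical, log axis), 1 library each, with RNA classes in colour and member numbers in the legend. The solid line marks equal deposited values and the dashed lines 4-fold; 7SL and the RNAs of RNase P and MRP lie near the solid line, H/ACA box snoRNAs and scaRNAs far below it, and 5S and mitochondrial RNAs above it.

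The 7SL RNAs, on which the signal recognition particle that brings ribosomes to the endoplasmic reticulum is built, were kept slightly above their input level on the deposited scale. Rn7s1 had 16801 reads in the mutant input and 45304 in the mutant IP, 1.8 times its input (95% interval 1.77 to 1.83). Rn7s2 had 16526 and 44921 reads, 1.81 times (1.78 to 1.84), and Rn7s6 had 5096 and 11814, 1.55 times (1.5 to 1.6). Their share of noncoding reads was 1.4% in the input and 3.21% in the IP. In the mock pair the same 3 RNAs had 17358, 16983 and 5688 input reads and 890, 840 and 237 IP reads, and their share was 1.46% and 0.0912%. The median log2 ratio was 0.85 for the mutant pair and -4.33 for the mock pair. The 7SL rows share sequence, so their reads cannot be taken as 3 independent observations.

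The RNAs of the endonucleases RNase MRP, which cuts ribosomal RNA precursors, and RNase P, which trims the 5′ end of tRNA precursors, lay close to input on the deposited scale. Rmrp had 2499 input and 6838 IP reads, 1.82 times its input (1.74 to 1.91), and Rpph1 had 4144 and 3812, 0.613 times (0.587 to 0.641). Rprl3, an RNase P RNA-like gene, had 497 and 815 reads, 1.09 times (0.977 to 1.22). Of these 3 RNAs 0 were higher and 0 lower. Their median of 0.13 turned to -0.12 when centred on the table median and was 1.82 with equal totals over all but the 10 features with most reads. Under that last scaling the 7SL median was 2.54, past 4-fold. Their mock median was -3.23, where all 3 were lower, with 325 IP reads for Rmrp, 475 for Rpph1 and 26 for Rprl3.

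Spliceosomal snRNAs divided. U1, which pairs with the 5′ splice site, was lower than its input: Rnu1a1 had 73280 input and 15488 IP reads, 0.141 times (0.138 to 0.143). Rnu1b1, Rnu1b2 and Rnu1b6 were at 0.128, 0.13 and 0.133 times their input. The share of these 4 RNAs in noncoding reads was 9.91% in the mutant input and 1.71% in the mutant IP, against 9.85% and 0.309% in the mock pair, where they were at 0.0244 to 0.025 times input. Another 14 features of RefSeq class snRNA had input reads within 20% of those of Rnu1a1, and with the 4 named RNAs these 18 features ran from 0.124 to 0.142 times input, a group chosen after its values were seen. These features had 62966 to 74222 input reads each. Their sequences were not compared, so they may count 1 RNA many times and cannot be taken as independent observations. U2, which pairs with the branch point, was near input on the deposited scale, with 1267 and 2258 reads for Rnu2-10, 1.19 times (1.11 to 1.27). Its mock reads were 1428 and 202, or 0.141 times. Of the 2 snRNAs of the minor spliceosome 1 was past 4-fold: Rnu11 had 2138 and 101 reads, 0.0315 times (0.0255 to 0.0385), and Rnu12 had 476 and 187, 0.262 times (0.22 to 0.311). Their mock ratios were 0.0147 and 0.26. With equal totals over all but the 10 features with most reads the medians were -1.23 for U1 and -1.76 for the minor snRNAs, no longer 4-fold lower, and U2 was at 1.95. Rnu5g of the U5 snRNA had 3 and 21 reads.

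The H/ACA box snoRNAs, which guide pseudouridylation of ribosomal RNA, were almost absent from the mutant IP. All 30 of 39 listed that qualified were lower, and 27 of them qualified through the input alone. Over all noncoding members with 20 input reads 23.9% were lower. Their median log2 ratio was -6.36, and their share of noncoding reads was 0.964% in the input and 0.00628% in the IP. Snora64 had 6389 input and 12 IP reads, 799-fold lower (457 to 1546). Snora43 had 4175 and 8, 783-fold lower (397 to 1814), Snora17 had 2531 and 30, 127-fold lower (88.4 to 188), and Snora73b had 2191 and 42, 78.2-fold lower (57.7 to 109). Across the 30, input reads ran from 24 to 6389 and IP reads from 0 to 42, and the counts of input and IP overlap only in that low range. The mock pair gave a median of -6.55 with 28 of the 30 lower, and Snora64 had 6877 and 13 reads there. By RefSeq's classes, a grouping made after the values were seen, 69 of 72 snoRNAs were lower and 2 higher, and 38 of them carry predicted-gene (Gm) names, all 38 lower, with 23 to 2604 input reads and 0 to 49 IP reads.

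The scaRNAs, which guide modification of spliceosomal snRNAs in Cajal bodies, were lower in 5 of 5 qualifying members, with a median of -6.29. Of these, 4 qualified through the input alone, and 150 of the 169 noncoding features that entered in that way were lower. Over all noncoding members with 20 input reads 23.9% were lower. Scarna13 had 2944 input and 38 IP reads, 116-fold lower (84.5 to 165), against 3015 and 2 in the mock pair. Scarna8 had 1172 and 1 reads, a ratio of 5.69e-04 with an interval from 1.44e-05 to 0.00318. Scarna6 was 55.5-fold lower, Scarna10 33.6-fold lower, and Scarna3a, with 139 reads and 0, at least 69.5-fold lower against a floor of 3 reads. Terc, the telomerase RNA, which also has an H/ACA domain, had 119 and 13 reads, 13.7-fold lower (7.73 to 26.5), and 74 and 6 in the mock pair. Transcripts that host snoRNAs were lower in 8 of 10, with a median of -4.59. Through the input alone qualified 4 of the 10. Among the 6 with 20 reads in both libraries 4 were lower, where 12.5% of the noncoding table were. In RefSeq's annotation the span of Snhg7 holds Snora17 and Snora43, that of Snhg3 holds Snora73a and Snora73b, that of Snhg12 holds Snora16a, Snora44, Snora61 and Snord99, and that of Snhg20 holds Mir6516. Snhg7 had 3951 input and 6 IP reads in the noncoding table, 988-fold lower, but 0 and 43 reads in the mRNA table, where another transcript stands for it. Snhg3 was 134-fold lower, Snhg12 129-fold lower and Snhg20 18.1-fold lower. Whether host reads are reads of the guest RNA was not tested.

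C/D box snoRNAs, which guide ribose methylation, had few qualifying members, 5 of 23. Of these 2 were higher and 2 lower. Snord15a had 72 input and 22 IP reads, 0.204 times (0.12 to 0.332), and Snord17 had 45 and 12, 0.178 times (0.0856 to 0.342), while Snord22 had 11 and 25. Snord118, the U8 snoRNA that takes part in maturation of the large-subunit ribosomal RNA, had 4 and 141 reads, 23.5 times (8.98 to 87.4), and Snord13 (U13) had 0 and 29, at least 6.44-fold higher. The mock pair had 3 and 0 reads of Snord118 and 0 and 8 of Snord13. U3, needed for the first cuts of the ribosomal RNA precursor, had 5 qualifying copies. In 4 of them it was near 2 times its input: Rnu3b1 had 128 and 357 reads (1.86 times), Rnu3b2 106 and 348 (2.19), Rnu3b3 124 and 353 (1.9), and Rnu3b4 100 and 328 (2.19). The other copy, Rnu3a, added after its values were seen, had 62 and 36 reads, 0.387 times. All 5 copies were at 0.573 to 0.761 times input in the mock pair.

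**Figure D2:**
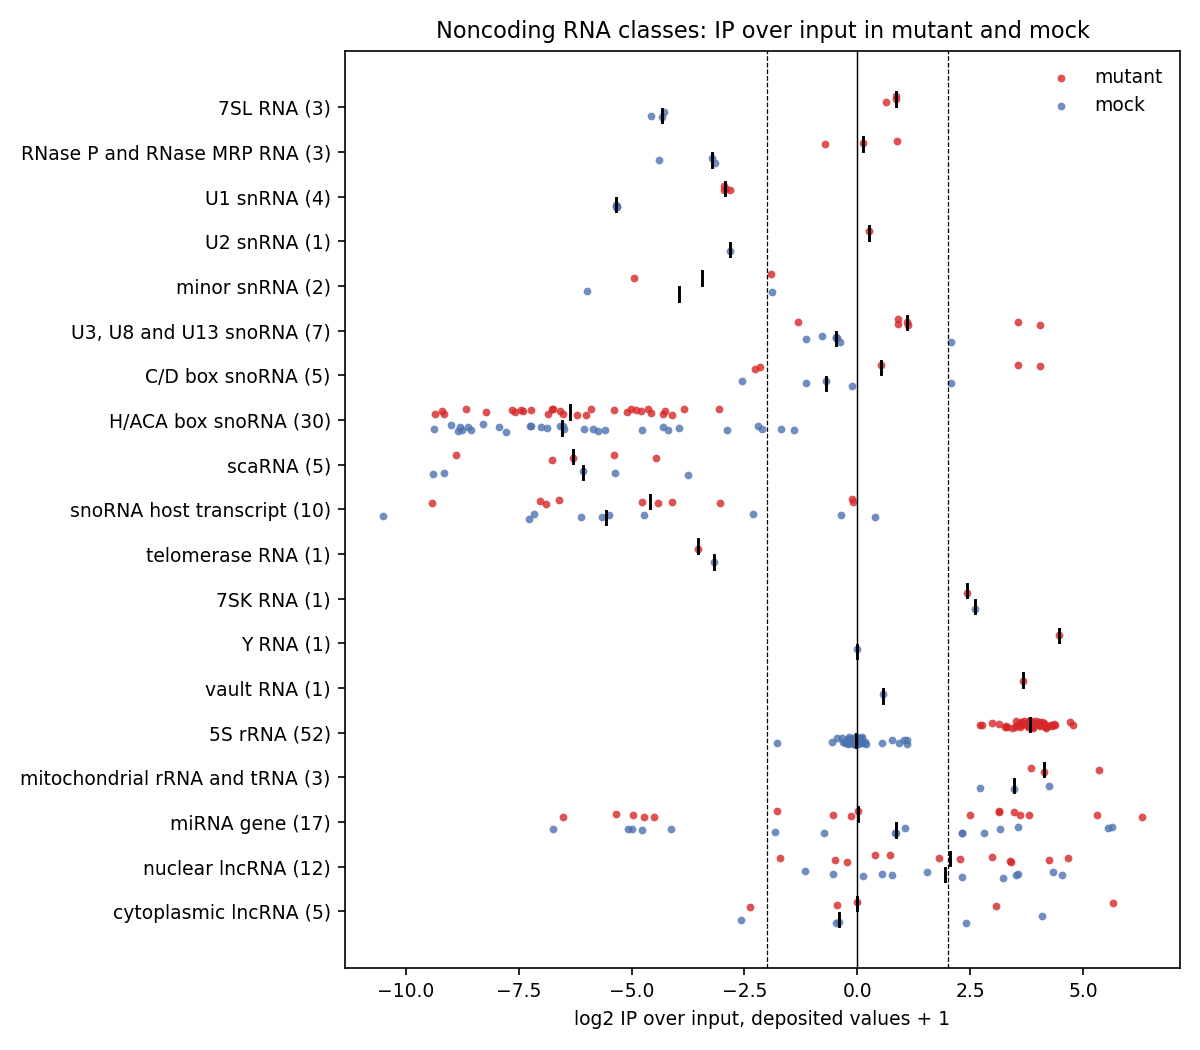
Log2 IP over input (deposited values + 1) for the qualifying members of 19 noncoding classes, in the mutant pair (red, upper row) and the mock pair (blue, lower row), with black bars at class medians and dashed lines at 4-fold. Each point is 1 feature in 1 pair of libraries; the 7SL medians are 0.85 (mutant) and -4.33 (mock), and those of H/ACA box snoRNAs are -6.36 and -6.55.

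Of 52 qualifying copies of 5S ribosomal RNA, made by RNA polymerase III, all were higher, and their median was 3.82. Of them 37 had 20 reads in both libraries, and all 37 were higher. The copies summed to 1267 reads in the mutant input and 29064 in the mutant IP, 0.0461% and 0.913% of noncoding reads. The mock sums were 5990 and 5738 reads, 0.219% and 0.266%, with a median of -0.02. The mutant input held fewer 5S reads than the mock input. The copy n-R5s103 had 43 input and 955 IP reads, 14.8 times (10.9 to 20.6), with 192 and 177 in the mock pair. Among other polymerase III products, the Y RNA Rny1, a partner of the Ro60 protein, had 0 and 57 reads, at least 12.7-fold higher, and 0 in both mock libraries. The vault RNA Vaultrc5 had 11 and 242 reads, 14.7 times (8.05 to 29.8), with 6 and 10 in the mock pair. Rn7sk, the 7SK RNA that holds back transcription elongation, had 138 and 1131 reads, 5.46 times (4.58 to 6.57), and its mock ratio was 6.18. The ratio of 7SK was like that in the mock pair, and those of 5S and vault RNA were larger in the mutant pair.

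Mitochondrial ribosomal RNAs were higher than in the Ribominus-selected input in both pairs, and 18S ribosomal RNA was above input by less than 4-fold. Rn18s-rs5 (18S) had 284824 and 1179711 reads, 2.76 times, and the mock ratio was 2.76. The mitochondrial ribosomal RNA mt-Rnr1 had 174 and 10735 reads, 41.1 times (35.4 to 48.1), and mt-Rnr2 had 823 and 17891, 14.5 times (13.5 to 15.6). Their mock ratios were 19.2 and 11.2. The mitochondrial tRNA gene mt-Ts1 had 0 and 45 reads, at least 10-fold higher.

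**Figure D3:**
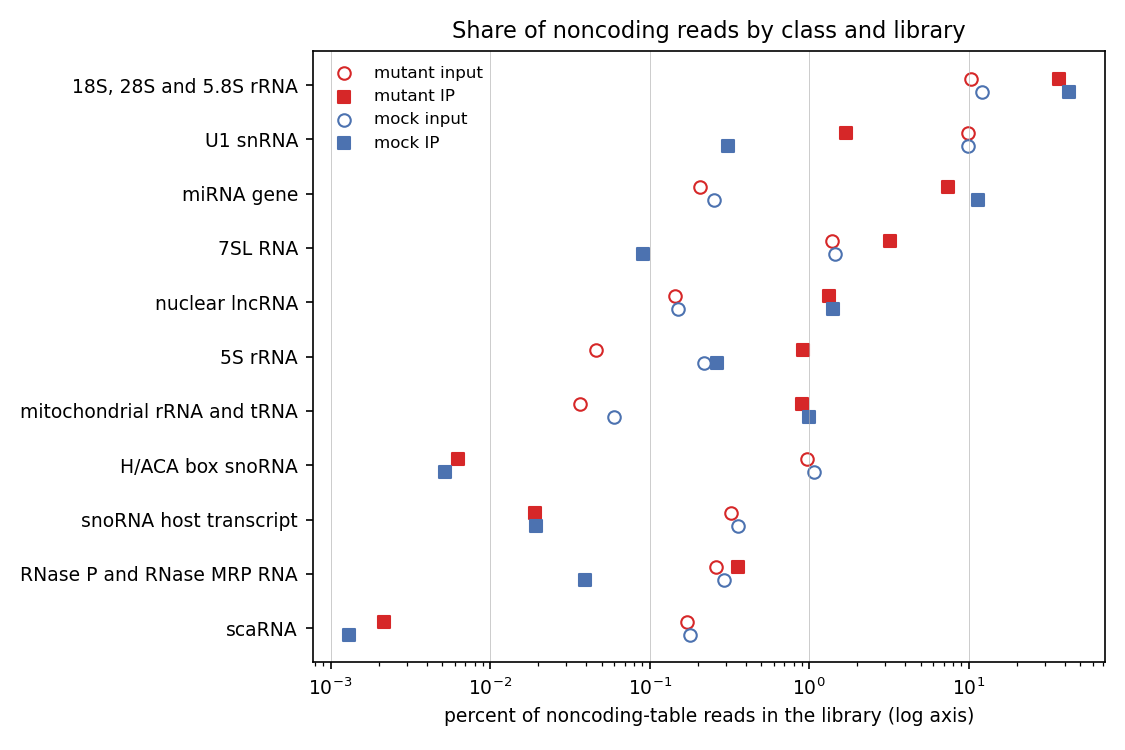
Share of all noncoding-table reads (percent, log axis) held by 11 classes in the 4 libraries, with open circles for inputs and filled squares for IPs, red for mutant and blue for mock. 7SL holds 1.4% and 3.21% in the mutant input and IP and 1.46% and 0.0912% in the mock input and IP, while H/ACA box snoRNAs lie below 0.01% in both IPs.

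miRNA genes held rows at both ends. The tables count whole genes, so reads cannot be assigned to an arm or told from a precursor or a host intron. Of 17 qualifying rows in that list, 8 were higher and 5 lower (median 0.02), where 27.6% of all noncoding members were higher and 15.5% lower. Through the IP alone qualified 6 of the rows and through the input alone 5, so these had to be high there. In the mock pair 7 of the 17 were higher and 5 lower. The list also took 4 long transcripts of RefSeq class lncRNA, Mir99ahg, Mirt1, Mir17hg and Mir124a-1hg; the 13 members of RefSeq class miRNA, a grouping made after the values were seen, had 7 higher and 5 lower and a median of 3.13. Of the 17, 6 had 20 reads in both libraries, of which 2 were higher and 0 lower. No let-7 gene qualified. In all, 19 symbols named as miRNAs qualified in either table and 14 were found in RefSeq's miRNA table (GRCm38.p6), which gives 20 mature sequences with 0 shared seeds. The mature RNAs of the 4 lowest with a sequence and of the 2 with most reads are shown, 5′ to 3′, with the seed (bases 2 to 8) in capitals, because these genes mark the ends of the class.
mmu-miR-3069-5p: uUGGCAGUcaagauauuguuuagc
mmu-miR-3069-3p: uUGGACACuaaguacugccaca
mmu-miR-1843b-5p: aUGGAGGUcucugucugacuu
mmu-miR-1843b-3p: cCGAUCGUuccccuccauac
mmu-miR-3068-5p: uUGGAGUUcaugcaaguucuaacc
mmu-miR-3068-3p: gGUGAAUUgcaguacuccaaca
mmu-miR-6516-5p: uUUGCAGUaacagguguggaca
mmu-miR-6516-3p: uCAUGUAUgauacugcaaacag
mmu-miR-6236: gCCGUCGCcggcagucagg
mmu-miR-6240: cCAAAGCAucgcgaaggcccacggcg

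In the noncoding table Mir3069 had 285 input and 2 IP reads, 0.00468 times (5.64e-04 to 0.0171), and 264 and 0 in the mock pair. Mir1843b had 71 and 0 reads and Mir3068 had 46 and 0, with upper limits of 0.0356 and 0.0557 times input. Mir6516 had 284 and 11 reads, 0.0258 times (0.0127 to 0.0469), and lies within Snhg20 in RefSeq's annotation. These 4 genes were low in both IPs. Mir6236 had 3878 and 228571 reads, 39.3 times (38.1 to 40.6), and Mir6240 had 56 and 6817, 81.2 times (62.4 to 108). The miRNA list as a whole held 0.208% of noncoding reads in the input and 7.42% in the IP, with 236327 IP reads of which Mir6236 held 228571. In the mock pair Mir6236 had 5131 and 241290 reads, 47 times its input. Reads from similar sequence elsewhere in the genome were not examined.

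Long noncoding RNAs were mixed. Of 12 nuclear lncRNAs 6 were higher and 0 lower (median 2.04), where 27.6% of all noncoding members were higher. Among the 8 with 20 reads in both libraries 3 were higher, where 8.7% of the table were, and their median was 0.57. In the mock pair 6 of the 12 were likewise higher and 0 lower (median 1.93). Malat1, abundant in nuclear speckles, had 1284 input and 36451 IP reads, 18.9 times (17.9 to 20), and 20.3 times in the mock. Kcnq1ot1, an imprinted antisense transcript, had 1349 and 3357, 1.66 times (1.56 to 1.77), and Neat1, the scaffold of paraspeckles, 395 and 501, 0.846 times (0.74 to 0.967). Jpx, an activator of Xist, had 627 and 283 reads, 0.301 times (0.261 to 0.347). Of 5 cytoplasmic or stem cell lncRNAs 2 were higher and 1 lower, and the mock pair gave the same counts. Lncenc1 had 1 and 211 reads, 141 times with an interval from 25 to 5582, and Platr4 had 537 and 154, 0.191 times (0.159 to 0.229).

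The extremes of the noncoding table, chosen by their interval bounds, included predicted genes. Gm26870 had 78364 input and 67 IP reads, 1754-fold lower (1381 to 2264), and its mock input held 8278. Gm22988 was 644-fold lower (339 to 1411), and Gm26165, with 613 reads and 0, at least 307-fold lower. Gm25291 had 2776 and 3 reads, a ratio of 7.20e-04 (1.48e-04 to 0.00211). Snora57 and Snora68 had 1396 and 994 input reads and 1 IP read each. At the other end Gm15564 had 28 and 7112 reads, 169 times (117 to 255), and 2900060B14Rik, AU020206, Gm37864 and Gm12592 had 0 input reads and 203, 190, 127 and 111 IP reads, at least 45.1-, 42.2-, 28.2- and 24.7-fold higher. Of these, 2900060B14Rik had 0 reads in both mock libraries.

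The mRNA table as a whole lay higher in the IP. Of 8746 members 6643 (76%) were higher and 127 (1.45%) lower, and the median log2 ratio was 3.13. In the mock pair 5796 of 7517 (77.1%) were higher. This level depends on how the libraries are scaled: with equal totals 1815 were higher and 428 lower, with equal totals that leave out the 10 features with most reads 2142 and 394, and centred on the median 384 (4.39%) and 1016 (11.6%). Most members qualified through the IP alone, 7340 against 1267 through both libraries and 139 through the input alone, and 6140 of the 7340 were higher. With 20 reads in both libraries, 503 of 1267 (39.7%) were higher and 24 (1.89%) lower, and their median was 1.62. With 20 input reads, 503 of 1406 (35.8%) were higher and 127 (9.03%) lower. The 171 features whose larger count was 19 and the 177 whose larger count was 20 had medians of 3.01 and 3.07. Gene groups are therefore set beside the table median of 3.13, and a count of higher genes near 76% is not particular to a group.

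**Figure D4:**
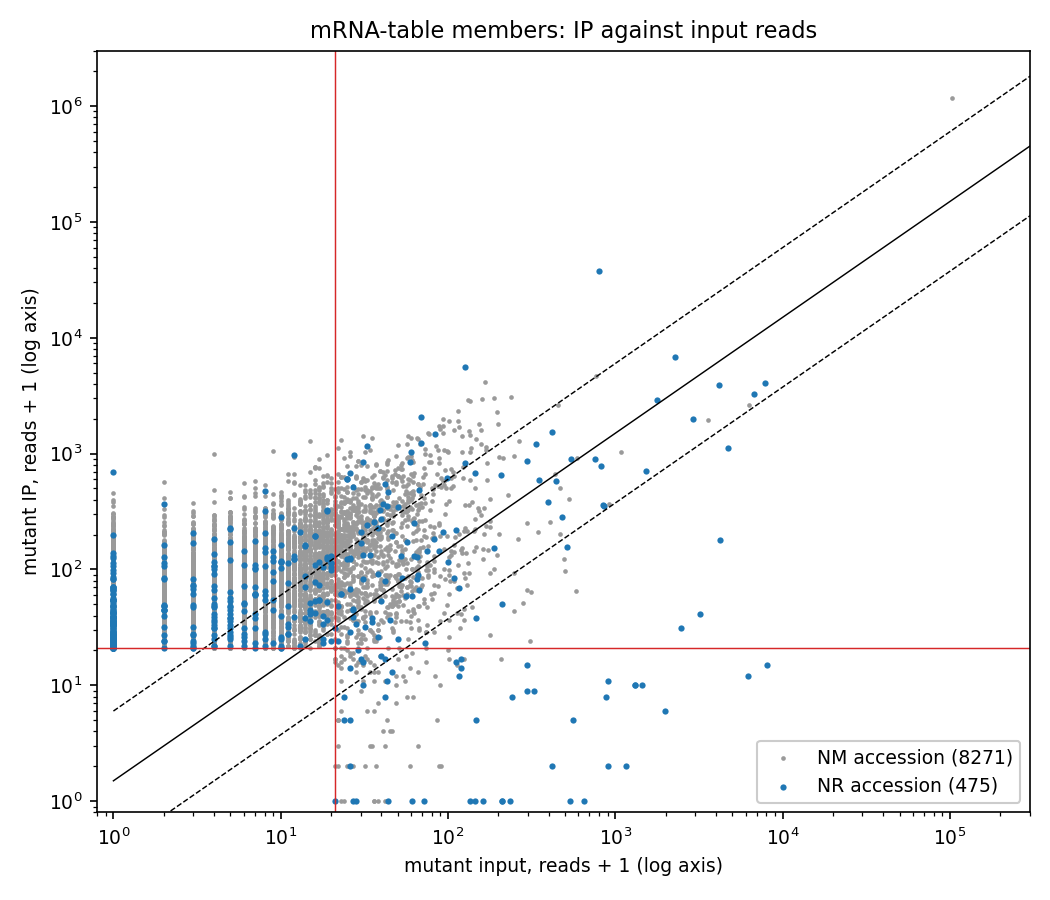
Reads + 1 of the 8746 members of the mRNA table in the mutant input (horizontal, log axis) and the mutant IP (vertical, log axis), 1 library each; grey points are mRNA (NM) accessions and blue points noncoding (NR) accessions. Red lines mark the 20 reads needed in either library, the solid line equal deposited values and dashed lines 4-fold; most members have under 20 input reads, and all 7 with at least 1000 input reads and under 20 IP reads are NR accessions.

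Dis3l2 had 7 reads in the mutant input and 127 in the mutant IP, 12.1 times (5.7 to 30.7), and 3 and 21 in the mock pair, 7 times. The reads of Dis3l2 may be of the endogenous gene or of the construct, which was not examined. Of the 7 qualifying genes of Dis3l2 and the uridylation pathway, 5 were higher and 0 lower. The share of higher features was 76% over the whole mRNA table. All 7 genes qualified through the IP alone, and 6140 of the 7340 features that entered in that way were higher. In the mock pair 5 of the 7 were likewise higher and 0 lower, so this count is not particular to the pathway or to the mutant pair. Zcchc11 had 4 and 146 reads, 24.3 times (9.3 to 90.5), with 7 and 16 in the mock pair. Zcchc6 had 18 and 115, 4.26 times (2.58 to 7.44), and Lin28a 4 and 167, 27.8 times (10.7 to 103). Their mock ratios were 5.2 and 14. The quotient of the mutant and mock ratios was 10.3 for Zcchc11 (2.34 to 53.5), 0.818 for Zcchc6 (0.387 to 1.74) and 1.98 for Lin28a (0.516 to 9.21). Among these intervals that of Zcchc11 alone excludes 1, but they cover counting error only and are narrower than the spread between libraries. The Zcchc11 quotient rests on 4, 146, 7 and 16 reads in single libraries, so it does not establish a difference between mutant and mock.

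Over all qualifying members, groups of the translation machinery had medians near or under the 3.13 of the table. With 20 reads in both libraries, 3 of these groups had medians above the 1.62 of the table. They were 2.07 for cytosolic ribosomal protein genes, 2.95 for translation factors and 2.22 for aminoacyl-tRNA synthetases (3 genes). Of 82 cytosolic ribosomal protein genes 59 were higher and 0 lower. Their median was 2.46, which is -0.67 against the table median. With 20 reads in both libraries 21 of 35 were higher, where 39.7% of the table were. Rpl4 had 87 and 907 reads, 6.95 times (5.57 to 8.76), Rpl3 83 and 537, 4.31 times (3.42 to 5.5), and Rps2 94 and 577, 4.09 times (3.29 to 5.14). Mitochondrial ribosomal protein genes had a median of 2.60, with 23 of 37 higher, and with 20 reads in both libraries 0 of 5 were higher (median 0.27). Of the 4 with most reads, Mrpl45 had 4 and 91 reads, 15.2 times (5.72 to 56.9), whereas Mrpl19 had 32 and 75, 1.56 times (1.02 to 2.44), Mrpl35 had 89 and 193 reads, 1.45 times (1.12 to 1.88), and Mrpl27 50 and 91, 1.21 times (0.85 to 1.75). Translation factors had a median of 3.14, with 39 of 52 higher. The elongation factors Eef1a1 and Eef2 were at 14.9 and 12.5 times input, with 131 and 2924 reads and 159 and 2980 reads. Aminoacyl-tRNA synthetases, which charge tRNAs, had a median of 3.11, with 25 of 32 higher. With 20 reads in both libraries 3 of 3 were higher. Lars2 was 1 of them, with 102380 and 1182576 reads, 7.7 times (7.65 to 7.75), and its mock ratio was 10.7. The whole list summed to 102641 and 1186197 reads, so nearly all its reads were those of Lars2. Whether they come from the Lars2 mRNA or from similar sequence elsewhere in the genome was not examined.

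Genes of the secretory pathway and of stem cell identity lay somewhat above the table median. Most of them, 34 of 44 and 23 of 28, qualified through the IP alone and so had to be high there. Over all members of the table that qualified in that way the median was 3.32. Of 44 ER chaperone and secretory genes 39 were higher, with a median of 3.77, and 8 of 10 with 20 reads in both libraries were higher. Calr, a calcium-binding ER chaperone, had 135 and 2826 reads, 14 times (11.7 to 16.7). Canx, its membrane-bound relative, had 114 and 2337, 13.7 times (11.3 to 16.6). Hspa5 (BiP) had 64 and 1362, 14.2 times (11 to 18.5). Of 28 pluripotency genes 26 were higher, with a median of 3.75. With 20 reads in both libraries 4 of 5 were higher. On that filter the medians were 3.41 for the secretory genes and 3.29 for the pluripotency genes, against 1.62 for the table. Tdgf1, a Nodal coreceptor, had 8 and 1052 reads, 87.7 times (44.3 to 204), Zfp42 (Rex1) had 21 and 660, 21 times (13.6 to 34.1), and Jarid2, a partner of Polycomb repressive complex 2, had 107 and 1596, 9.94 times (8.17 to 12.2). The mock medians of these groups were 3.54 and 3.59, against 2.72 over the same members of the table.

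Genes of matrix and adhesion had a median of 3.30 with 37 of 41 higher, RNA decay factors 3.50 with 32 of 40, and housekeeping genes 3.42 with 19 of 20. Proteasome and chaperonin genes had 3.31 with 30 of 36, and nuclear-encoded oxidative phosphorylation genes 3.27 with 35 of 45. With 20 reads in both libraries the table median was 1.62. On that filter RNA decay factors had a median of 1.82 (3 of 6 higher) and proteasome and chaperonin genes 1.93 (2 of 5). Oxidative phosphorylation genes had 1.02 (1 of 3), matrix genes 3.02 (14 of 18) and housekeeping genes 3.42 (11 of 12). Through the IP alone qualified 34 of 40 RNA decay, 31 of 36 proteasome and chaperonin and 42 of 45 oxidative phosphorylation genes. Cdh1, the epithelial cadherin, had 92 and 2000 reads, 14.5 times (11.8 to 18.1), and Cnot1, the scaffold of the deadenylase complex, 30 and 618, 13.7 times (9.52 to 20.5). Splicing factors had a median of 3.06 with 46 of 52 higher and chromatin regulators 2.83 with 42 of 48. With 20 reads in both libraries their medians were 2.56 and 2.76. Within the splicing group Snrnp70, which encodes a protein of the U1 particle, had 169 and 596 reads, 2.35 times (1.98 to 2.81), and Srrm2 186 and 3031, 10.9 times (9.37 to 12.7). Replication-dependent histone genes, whose mRNAs end in a stem-loop and carry no poly(A) tail, had a median of 3.28 with 18 of 26 higher, but 0 of the 4 with 20 reads in both libraries were higher. Hist1h1c had 74 and 115 reads, 1.04 times (0.767 to 1.41), and Hist4h4 80 and 205, 1.71 times (1.31 to 2.24). Their mock median was 1.21.

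Zinc finger genes named Zfp, the largest of the mRNA groups, had the widest range of log2 ratios. No measure of spread that allows for the size of a group was computed. Of 209, 152 were higher and 2 lower. Their median was 3.25, and log2 ratios ran from -2.29 to 8.01. Of the 38 with 20 reads in both libraries 7 were higher and 2 lower (median 0.44). The 2 lower genes, named after their values were seen, were Zfp248 with 124 and 36 reads and Zfp811 with 81 and 28. Zfp488 had 6319 and 2602 reads, 0.275 times (0.262 to 0.287), and Zfp781 913 and 364, 0.266 times (0.235 to 0.3). Their log2 ratios of -1.86 and -1.90 fell short of 4-fold. Zfp106 had 72 and 1097, 10.2 times (8 to 13.1), and Zfp57, which maintains imprinted methylation, had 0 and 695, at least 154-fold higher, with 3 and 552 in the mock pair.

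**Figure D5:**
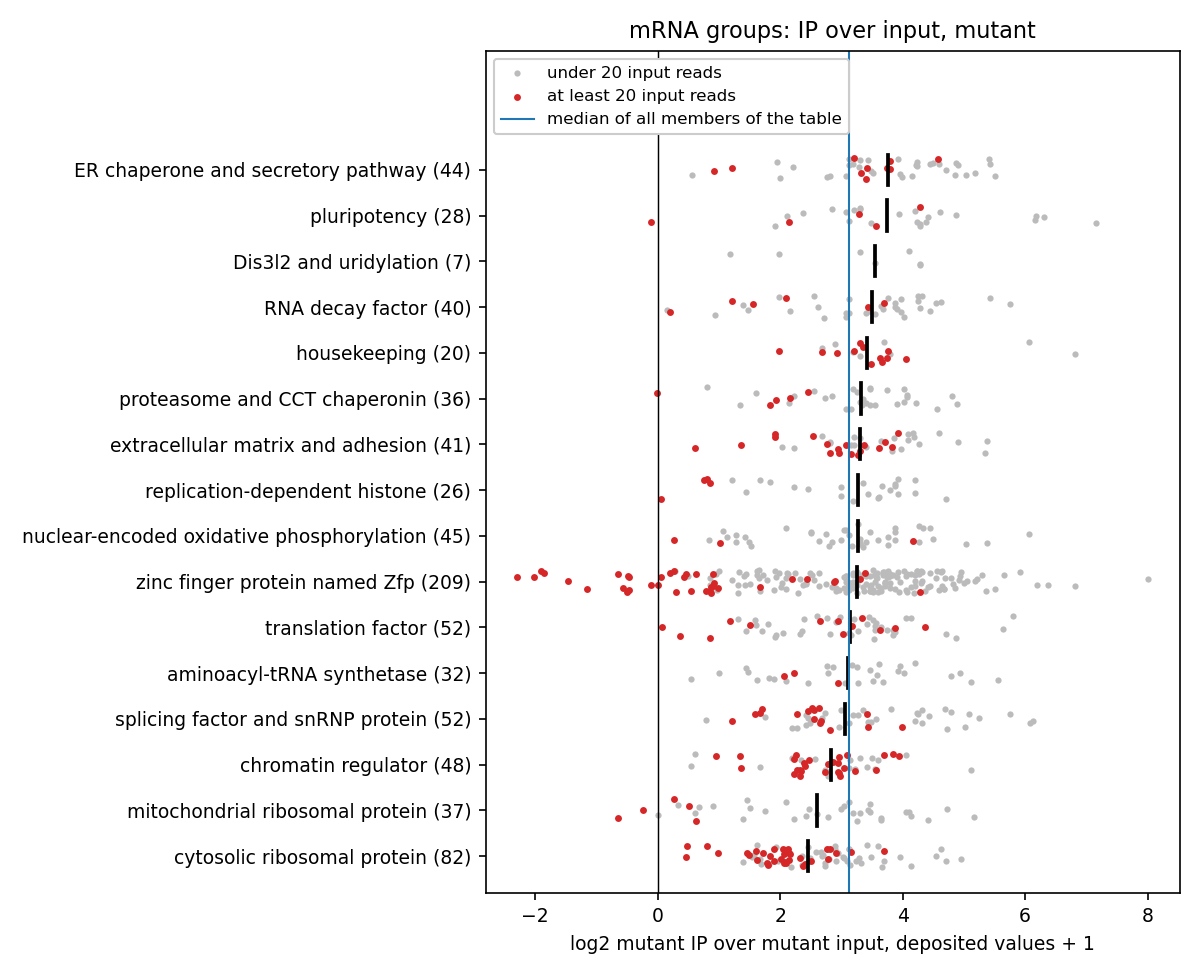
Log2 mutant IP over mutant input (deposited values + 1) for the qualifying genes of 16 groups of the mRNA table, ordered by group median (black bars), with red points for genes with at least 20 input reads and grey points for the others. The blue line is the median of all 8746 members, 3.13; group medians run from 2.46 (cytosolic ribosomal protein) to 3.77 (ER chaperone and secretory pathway).

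The highest genes by interval bound rested on few input reads. Besides Zfp57, Ddx5, an RNA helicase, had 0 and 455 reads, Trap1a 0 and 397, Esrrb, a pluripotency factor, 0 and 383, Grn 0 and 353, Triml1 0 and 306, Ubb, a polyubiquitin gene, 0 and 302, and Zfp280b 0 and 300. They were at least 101-, 88.2-, 85.1-, 78.4-, 68-, 67.1- and 66.7-fold higher. Mdm4, an inhibitor of p53, had 3 and 997 reads, a ratio of 222 (75.6 to 1076), and Tfrc, the transferrin receptor, 1 and 569, a ratio of 379 (67.8 to 15009). Esrrb, Grn and Ubb had 17, 16 and 23 reads in the mock input, against 0 in the mutant input. Among mRNA accessions with at least 20 input reads, a group added after the values were seen, Zbed6 had 22 and 1308 reads, 39.6 times (26.1 to 63.5), Usp48 30 and 1418, 31.5 times (22 to 46.9), Txnip 25 and 1022, 27.3 times (18.4 to 42.3), and Ddx17 34 and 1375, 27 times (19.2 to 39.1). Their mock ratios were 168, 26.7, 55 and 141.

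The lowest features of the mRNA table were noncoding accessions: Snora43, Snora64, Snora68, Snora70, Snora7a, Snora44, Snora26, Scarna8 and the transcripts Dancr and 5730408K05Rik, whose spans in RefSeq hold Snora26 and Snora57. Snora43 had 8060 and 14 reads, 864-fold lower, and Snora7a 650 and 0, at least 325-fold lower. Dancr and Snora26 both had 1305 and 9 reads. Of the 127 lower features, 77 had mRNA accessions among 8271 such members and 50 noncoding accessions among 475. Of the 77, 74 were found in RefSeq, and the span of 1 (1.35%) held an annotated snoRNA or scaRNA, against 3.02% over all members with mRNA accessions found there.

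The mRNA accessions lowest by interval bound, also chosen after the values were seen, had 35 to 307 input reads. Cx3cr1, the fractalkine receptor of microglia and monocytes, had 90 input and 1 IP reads, a ratio of 0.00741 (1.86e-04 to 0.0423), and 67 and 4 in the mock pair. Nkx2-1, a regulator of thyroid, lung and forebrain development, had 87 and 1, a ratio of 0.00766 (1.92e-04 to 0.0438), and 188 and 0 in the mock pair. Rhox8, a reproductive homeobox gene, had 146 and 4 reads, 54.8-fold lower, and Ap1s3, an adaptor subunit of vesicle transport, 307 and 23, 20-fold lower. Bcl11b, a T cell regulator, had 58 and 1. Itgb6, Gda, Fbxl16, Nr2e1 and Astn2 had 42, 41, 37, 35 and 35 input reads and 0 in the IP, at least 21-, 20.5-, 18.5-, 17.5- and 17.5-fold lower. Of these, Nr2e1 and Astn2 were also at 0 in the mock IP, while Itgb6 had 24 and 25 reads in the mock pair.

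The values were set beside those of the mock pair. Across features the log2 ratios of the 2 pairs had a Pearson r of 0.86 over 1421 noncoding features and 0.68 over 6713 features of the mRNA table, and 0.84 over 1053 and 0.92 over 1019 of those with 20 reads in each input, as a description across genes, which are not independent and whose 2 values share a transcript and its length. The ratios of IP over input in the mutant and the mock differed by 35.1-fold for Rn7s1 (95% interval 32.7 to 37.6), 16.4-fold for Rmrp (14.5 to 18.6), 5.78-fold for Rpph1 (5.2 to 6.43), 8.39-fold for Rnu2-10 (7.12 to 9.93) and 5.76-fold for Rnu1a1 (5.48 to 6.06), always higher in the mutant. The same quotient was 0.662 for Snora64 (0.276 to 1.58), 0.933 for Malat1 (0.862 to 1.01) and 0.884 for Rn7sk (0.675 to 1.16), whose intervals include 1. Of the 191 symbols that qualified in both tables, 80 had log2 ratios more than 1 apart, with a median distance of 0.69, so a value belongs to its table's transcript and not to the gene alone.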

How the data were processed

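Reads were aligned with Bowtie to mm9, per the submitters' processing notes. For the counting tool, strand and multi-mapping reads, nothing is given in the sources used here. Both tables deposited by the authors hold a signal per transcript, not divided by length. Per the file headers and values, 100% of values were whole reads within 0.02 reads after multiplying by the library's factor, the meaning of which the labels do not state. From these, reads were recovered, the transcript with the highest mean stood for each symbol, deposited values plus a pseudocount of 1 gave the log2 ratios, and exact conditional binomial 95% intervals of the recovered reads were computed (Python 3.11.15, scipy 1.17.1), after the script was tested on simulated data. A fold against 0 reads was computed against a floor of 3 reads. Among mRNA-table rows, 26 gene names turned into dates were restored by accession. RefSeq (GRCm38.p6) served for names, classes, which genes lie within a span, and miRNA sequences, with no coordinates used.

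With 1 library per group no count model was run, as it would compare libraries only. Named were Dis3l2, the 10 features per table with the highest lower bound and the 10 with the lowest upper bound, and the 4 members of each list with most reads (all in lists of up to 6). The members and lists were chosen with earlier results of these data known. The planned look at protein length and N-terminal hydrophobicity was not done, as no protein table was used here. U7 and 4.5S lists matched 0 rows. Alternatives were other scalings, pseudocounts and read minimums, all transcripts, and calls by the whole interval; mRNA accessions only and equal totals over both tables were added after seeing the data.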

Additional observations from a re-analysis of the deposited data

Results flagged for a closer look

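Some features lay above their input in the mutant pair and below it in the mock pair, or the reverse, with intervals on opposite sides of 1. With 1 library per group these differences were not tested with replicates. The quotient of the mutant and mock ratios was 35.1 for Rn7s1, 36.6 for Rn7s2 and 37.1 for Rn7s6, the 7SL RNAs, 16.4 for Rmrp and 8.39 for Rnu2-10. The U3 copies Rnu3b1, Rnu3b2, Rnu3b3 and Rnu3b4 gave 2.56, 3.81, 2.49 and 3.06. The 5S copy n-R5s146 gave 17.9, with 41 mutant and 203 mock input reads. Zfp781 went the other way at 0.204, with 913 mutant and 269 mock input reads and 364 and 350 reads in the IPs.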

How the results depend on the processing

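The counts of the mRNA table moved most with scaling and with the read minimum. Higher features numbered 384 centred on the median, 1815 with equal totals, 2142 with equal totals that leave out the 10 features with most reads, 3853 with a pseudocount of 5, 4232 with a minimum of 50 reads, and 503 with 20 reads in the input or in both libraries, against 6643. Lower features numbered 1016, 428 and 394 under the same 3 scalings, 77 with a minimum of 50 reads, 24 with 20 reads in both, 316 with a minimum of 1 read and 77 among mRNA accessions, against 127. Higher noncoding features numbered 844 without the 10 features with most reads, 211 with a pseudocount of 5, 231 with 50 reads, 84 with 20 reads in the input or in both, 877 with 1 read and 292 with the whole interval past 4-fold, against 482, and lower ones 147 and 121 without the top 10 and with 20 reads in both, against 271. Stricter minimums test fewer features; for the other settings the cause was not tested. In these 23 cases a count moved over 1.5 times, and in 27 it did not. Centring turned the mRNA-table median to 0.00 and group medians to -0.67 (cytosolic ribosomal protein), -0.53 (mitochondrial ribosomal protein), -0.02 (aminoacyl-tRNA synthetase), -0.07 (splicing), -0.30 (chromatin) and -0.68 (fibroblast markers, also -2.68 with 20 input reads, 1 gene). These groups had medians past 4-fold before centring. Endoderm markers went from 1.99 to -1.14 and mesoderm and ectoderm markers from 1.46 to -1.68, with 3 genes each. Medians of 7SL stayed between 0.59 and 2.54 and those of H/ACA box snoRNAs between -6.78 and -4.58 under the alternatives run for them. No paired analysis was possible because each group has 1 library. The input of the mRNA table, with 307324 reads, limits its ratios.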
